A study of Mus musculus with 8 samples.

Results

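The 9 genes described here are the mouse insulin genes Ins1 and Ins2 and 7 transcription factors known to act at insulin gene promoters, Pdx1, Mafa, Nkx6-1, Nkx2-2, Pax6, Isl1 and Glis3. They were chosen by symbol, and all 9 had a row among the 23284 genes of the count tables and were among the 14116 genes tested. Pancreata of embryonic day 17 mice were dissociated and Tomato-positive cells were sorted by flow cytometry, so that each library is a bulk sample of sorted cells. The sort was meant to take cells descended from the Neurog3-expressing precursors of the islet. Markers of acinar cells, mesenchyme cells and leukocytes were also counted, as given below. All 8 libraries carried a Neurog3-Cre transgene and a Cre-dependent Rosa Tomato reporter. In the 4 KO libraries (replicates 8, 9, 17 and 24) both Neurod1 alleles were floxed, written Neurod1floxed/floxed in the labels, and in the 4 Het libraries (replicates 6, 7, 13 and 19) the genotype was Neurod1floxed/wt; the strain is written C56BL/J. The control cells therefore also carried a floxed allele and the Cre, and no library without them was analysed here. The labels do not say whether replicates came from separate animals or pools, so p-values measure the spread between these libraries.

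Insulin is made by the beta cells of the islet, and mice carry an ancestral insulin gene, Ins2, and a retroposed copy, Ins1. Their promoters are read by a small set of factors that act together: Neurod1, paired with a ubiquitous basic helix-loop-helix partner, binds E-boxes, Pdx1 and other homeodomain factors bind AT-rich A-boxes, and Mafa binds the C1 element. Mafa appears late in beta-cell development, as the cells mature. Neurod1 is the gene removed in this study, and the comparison asks how the insulin genes and the rest of this set of activators stood in cells without it.

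The Ins1 promoter is shown because it carries the kind of site that Neurod1 binds. RefSeq's promoter table (build GRCm38.p6; the count files were made on mm9) held windows for 7 of the 9 genes; Ins2 and Mafa had none. Each window runs from 250 bases before a start site to a little after it. The letters CATCTG, an E-box of the form found in insulin promoters, and TAAT, the core that many homeodomain proteins bind, were searched on both strands and are in capitals; every CATCTG is also a CANNTG. The first sequence is the 250 bases before the start, at chr19:52264047-52264296 on the plus strand. The second is the last 30 bases of the window, at chr19:52264317-52264346, which lie after the RefSeq start.
Ins1 upstream: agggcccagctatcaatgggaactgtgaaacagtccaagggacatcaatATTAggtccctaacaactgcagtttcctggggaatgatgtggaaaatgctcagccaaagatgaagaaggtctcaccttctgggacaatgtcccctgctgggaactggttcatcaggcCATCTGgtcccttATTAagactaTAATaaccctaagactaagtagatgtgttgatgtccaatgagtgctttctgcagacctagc
Ins1 after start: ctgcagcttcagcccctctggcCATCTGcc
The Ins1 window held 2 CATCTG and 3 TAAT matches. At least 1 CATCTG stood in 17.2% of the 32851 promoter windows in the table, and at least 1 TAAT in 58% of them. Among the activators with a window, Nkx2-2 held 1 CATCTG and the windows of Pdx1, Nkx6-1, Pax6, Isl1 and Glis3 held none. The general E-box form CANNTG (N, any base) matched 4 times in the Ins1 window and 3 times each in those of Pdx1 and Nkx2-2. It matched once each in Isl1, Glis3 and 1 of the 2 Pax6 windows, and not in Nkx6-1 or the other Pax6 window. At least 1 CANNTG stood in 72.3% of all windows. TAAT was found in the windows of Nkx2-2 (1), Isl1 (2) and each of the 2 windows of Pax6 (2 each). These matches describe letters in a window and are not measurements of binding.

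The coding sequences of Ins1 and Ins2 are shown because the pair is so alike that a short read could be assigned to the wrong gene. In GENCODE M21 the Ins1 coding sequence is 327 bases long and that of Ins2 333 bases, and 302 of 327 aligned bases (92.4%) were identical. The most alike stretch of 60 bases, at coding positions 98 to 157 of both genes counted from the start codon, had 1 difference, in capitals.
Ins1 positions 98 to 157: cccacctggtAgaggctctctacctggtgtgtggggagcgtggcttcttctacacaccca
Ins2 positions 98 to 157: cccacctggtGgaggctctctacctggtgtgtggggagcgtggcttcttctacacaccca
The least alike ungapped stretch of that length, the first 60 coding bases, had 10 differences.
Ins1 positions 1 to 60: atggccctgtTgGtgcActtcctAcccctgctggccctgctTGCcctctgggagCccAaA
Ins2 positions 1 to 60: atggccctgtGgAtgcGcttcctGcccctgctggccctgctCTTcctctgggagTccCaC
Reads were 100 bases long, per the labels' protocols. Of the 228 possible 100-base windows of the Ins1 coding sequence, none matched an Ins2 transcript within 2 mismatches, and the closest differed at 3 positions. The same held for the 234 windows of Ins2 against Ins1. The sources used here do not say how the authors' counting treated reads that fit both genes.

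The libraries held 10.35 M to 16.08 M counts (M, mega). Neurod1 checked the labels: it stood at 2.55, 12.9, 22.2 and 21.5 CPM in KO replicates 8, 9, 17 and 24, and at 133 to 210.5 CPM in the Het libraries (CPM, the counts divided by the scaled library size in M). KO replicate 8 stood apart in the cell types it held. All 11 mesenchyme markers were highest there, with a summed level of 12460 CPM against 372.8 to 1641 CPM in the other 7 libraries, and the collagen gene Col1a2 at 2552 CPM against 65.2 to 298 CPM. The summed level of 14 pan-endocrine secretory genes was lowest in the same library, at 4981 CPM against 7079 to 11470 CPM. The 7 leukocyte markers summed to 425 CPM there, against 17.1 to 230 CPM in the other 7 libraries. Their median log2 fold change of KO over Het was 2.38, or 1.21 without KO replicate 8. By edgeR 0 of the 7 were called, and DESeq2 called 2 higher, where it called 1.61% of all genes higher. In bulk samples fewer cells of a type and less RNA per cell cannot be told apart. Of the other hormone cells, alpha-cell markers were lower in KO with 3 of 8 called (edgeR adjusted p under 0.05). Of all genes tested, 0.68% were called lower. The alpha-cell markers summed to 14965 to 25399 CPM in KO and 35018 to 35994 CPM in Het. Of 4 delta-cell markers 0 were called, and the sums overlapped, at 1649 to 3415 CPM in KO and 3048 to 4259 CPM in Het. Acinar markers, from the enzyme-secreting cells around the islet, summed to 10295 to 46067 CPM, with the highest sum in KO replicate 9. Y-linked genes summed to 413.6 to 496.7 CPM in KO replicates 8, 9 and 24 and Het replicate 7, and to 0.309 to 0.442 CPM in the other 4 libraries. Fits with the mesenchyme, acinar or Y-linked genes as a covariate are given beside the results they changed. The part of the alpha-cell, delta-cell and leukocyte markers was not tested.

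Both insulin genes fell in KO, Ins1 far more than Ins2. Ins1 stood at 520.6, 682, 1492 and 1584 CPM in KO replicates 8, 9, 17 and 24. In Het replicates 6, 7, 13 and 19 it stood at 8350, 10726, 10015 and 24136 CPM. The lowest Het library was 5.27-fold above the highest KO library. The means were 1069 ± 546 CPM in KO and 13307 ± 7288 CPM in Het (SD over 4 libraries), a 12.4-fold difference (log2 fold change −3.64, SE 0.47, 95% interval −4.68 to −2.59, adjusted p = 0.00795, edgeR quasi-likelihood test with Benjamini-Hochberg adjustment). Ins1 had the 22nd smallest p of the 14116 genes tested.

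Ins2, the ancestral gene, stood at 3202, 3127, 5125 and 6156 CPM in KO replicates 8, 9, 17 and 24 and at 13727, 13570, 10457 and 16742 CPM in Het replicates 6, 7, 13 and 19. Again every KO library lay below every Het library, with a gap of 1.70-fold between the groups. The difference was 3.09-fold (log2 fold change −1.63, SE 0.26, 95% interval −2.20 to −1.06, edgeR adjusted p = 0.0195). The Ins2 call was lost at adjusted p of up to 0.0771 in fits without KO replicate 9 or 17 or without any single Het replicate, at 0.0973 with a covariate for Y-linked genes and at 0.0570 with scaling by the pan-endocrine genes. It held at 0.0106 without KO replicate 8, and Ins1 was called in all 19 alternatives run, at adjusted p up to 0.0380.

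The insulin genes were thus the 2 of 9 members called, both lower, where 1.02% of all genes tested were called, 0.68% lower and 0.34% higher. Without KO replicate 8 the same 2 were called, against 1.31% of genes lower and 0.678% higher. DESeq2 called 4 members lower, Ins1, Ins2, Mafa and Isl1, against 2.08% of genes lower and 1.61% higher. Voom called Ins1 and Ins2, against 2.15% of genes lower and 1.39% higher. Mafa passed the filter on low counts only through its Het libraries, so nothing is read from its place in these counts or in the next. The log2 fold change was negative for 7 of the 9 and for 46.6% of all genes. By the weaker criterion that every KO library lies below every Het library, 4 of the 9 qualified, Ins1, Ins2, Mafa and Isl1, where 4.48% of all genes tested did. No member lay wholly higher in KO, where 3.55% of genes did, and 8.03% of genes were separate in either direction. Among the 3 KO libraries and 1 Het library with Y-linked counts, Ins1 averaged 929 CPM in KO against 10726 CPM, and Ins2 4162 against 13570 CPM. Among the 1 KO and 3 Het libraries without them, Ins1 stood at 1492 CPM against 8350 to 24136 CPM and Ins2 at 5125 against 10457 to 16742 CPM. Each of these sets has a single library on 1 side and so no spread there: the values are a description, no test was made of them, and the fit with the Y-linked covariate, in which Ins2 was not called, stands beside them.

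**Figure D1:**
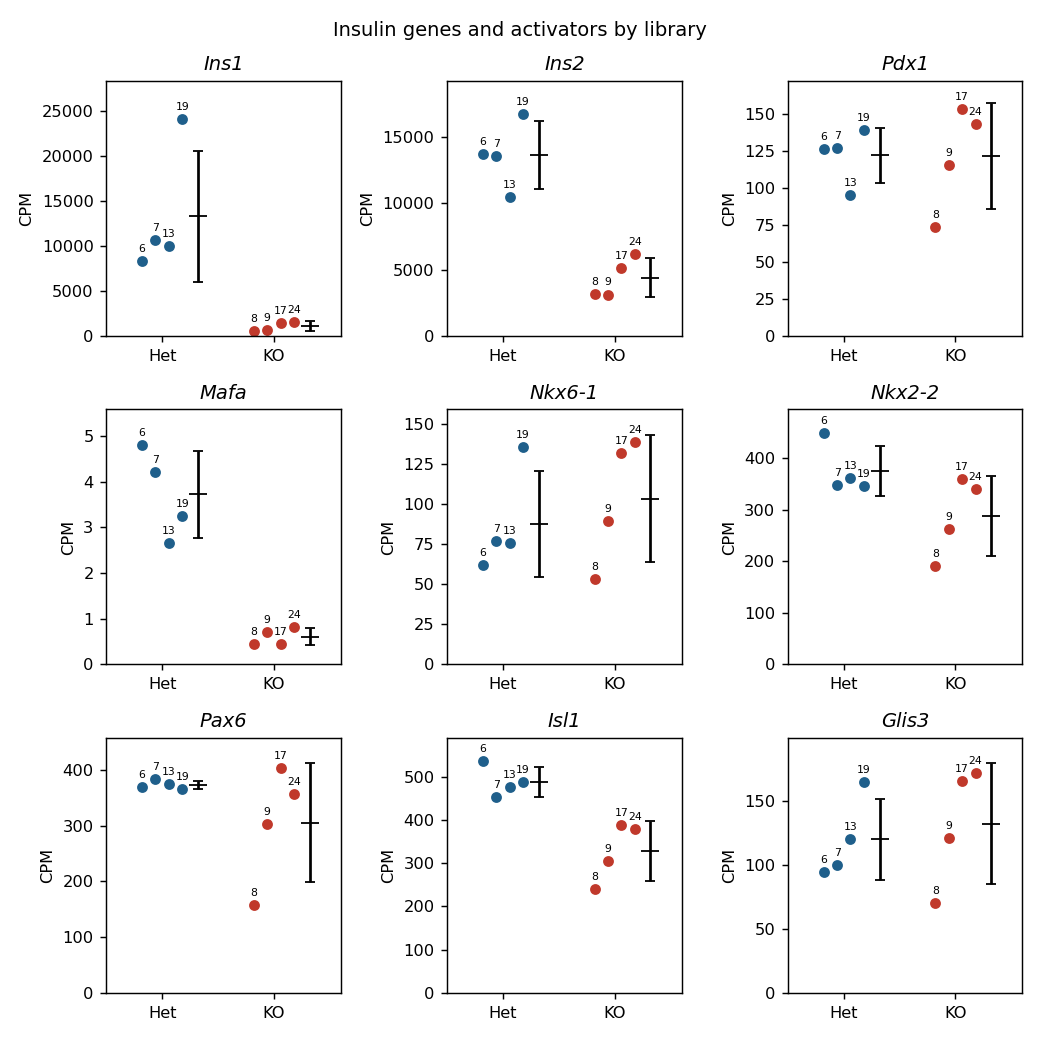
Level of each of the 9 genes in CPM (y axes start at 0) in the 4 Het and 4 KO libraries; points carry the replicate number and the bars beside them give the mean ± SD. The groups do not overlap for Ins1, Ins2, Mafa and Isl1, and KO replicate 8 is the lowest library for all members except Ins2.

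The share of insulin transcripts that came from Ins1 moved with genotype. Ins1 gave 14.0%, 17.9%, 22.5% and 20.5% of the Ins1 and Ins2 counts in KO replicates 8, 9, 17 and 24. In Het replicates 6, 7, 13 and 19 it gave 37.8%, 44.1%, 48.9% and 59.0%. The exact binomial 95% intervals of these shares were narrow (13.7% to 14.3% in KO replicate 8, and 58.9% to 59.2% in Het replicate 19), covering counting error only, so the spread lies between libraries. The insulin genes together took 0.380% to 0.781% of all counts in KO and 2.03% to 3.90% in Het.

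Ratios within a library do not depend on how libraries are scaled to each other, and 6 were compared by exact permutation tests over 70 assignments, two-sided, adjusted over the 6. The smallest p this design can give is 0.0286, and any ratio whose groups do not overlap reaches it. Ins1 over Ins2 had a mean log2 ratio of −2.14 ± 0.36 in the KO libraries and −0.15 ± 0.52 in the Het libraries (SD, n = 4; exact p = 0.0286, adjusted p = 0.0343), which sets the difference between the 2 falls at −1.99. Ins2 also fell relative to Iapp, which encodes amylin, the peptide co-secreted with insulin. That log2 ratio averaged 0.41 ± 0.16 over the KO libraries and 1.15 ± 0.16 over the Het libraries (exact p = 0.0286, adjusted p = 0.0343). Iapp itself stood at 2000 to 4807 CPM in KO and 5568 to 7126 CPM in Het without overlap, and was not called (log2 fold change −0.85, edgeR adjusted p = 0.200).

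The ratio of Ins2 to Pdx1 set the fall of the hormone beside an activator. It was 5.44, 4.76, 5.06 and 5.42 on the log2 scale in KO replicates 8, 9, 17 and 24 and lay between 6.74 and 6.91 in the 4 Het libraries (difference −1.62, exact p = 0.0286, adjusted p = 0.0343). In KO replicate 8, where both genes were low in CPM, the ratio was the highest of the KO libraries and still below every Het library. This ratio rests on the Ins2 counts given above and is no separate support for the fall of Ins2.

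**Figure D2:**
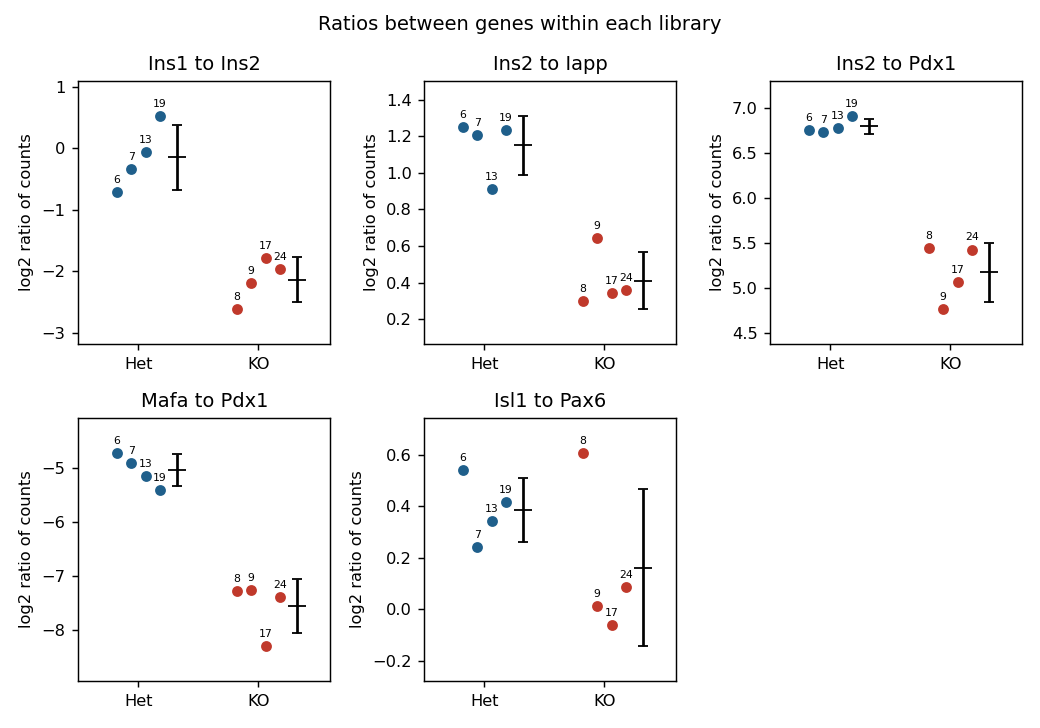
Log2 ratio of counts between 2 genes within each library (0.5 counts added to each gene) for 5 of the 6 ratios compared; points carry the replicate number and the bars give the mean ± SD. The Het and KO libraries are separate in every ratio shown except Isl1 to Pax6, where KO replicate 8 is the highest of all 8.

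Of the 7 activators none was called by edgeR, and 2, Mafa and Isl1, had an unadjusted p under 0.05 and were called by DESeq2; 12.2% of all genes had such an unadjusted p. Mafa, a basic leucine-zipper factor that drives insulin transcription in maturing beta cells, had by far the largest difference among them and by far the fewest reads. Its raw counts were 6, 9, 6 and 9 in KO replicates 8, 9, 17 and 24, and 62, 68, 30 and 32 in Het replicates 6, 7, 13 and 19. The highest KO library lay 3.28-fold below the lowest Het library. Mafa stood at 0.604 ± 0.188 CPM in KO and at 3.72 ± 0.957 CPM in Het (SD over 4 libraries), a log2 fold change of −2.61 (SE 0.55, 95% interval −3.83 to −1.40) with an edgeR adjusted p of 0.0578, the 166th smallest p of all genes tested. Of the KO libraries 1 reached the filter level of 0.792 CPM, so that Mafa entered the test through its Het libraries. Over the 19 alternatives its adjusted p ran from 0.00199 by DESeq2 to 0.172 with the Y-linked covariate, with a call in 3 of them and in none of the 8 fits that left a library out. With no filter on low counts it was 0.117. A stricter filter of 2 CPM in 4 libraries (0.0366) again admitted Mafa only through Het. The DESeq2 fit and the fit with the mesenchyme covariate kept the main filter, so none of the 3 calls is support.

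Mafa was lower beside Pdx1 within the same library, but this ratio rests on the same few Mafa counts and is no separate support. The log2 ratio of Mafa to Pdx1 was −7.28, −7.25, −8.29 and −7.39 in KO replicates 8, 9, 17 and 24 and −4.71, −4.91, −5.15 and −5.40 in Het replicates 6, 7, 13 and 19. Every KO library lay below every Het library, with means of −7.56 ± 0.50 and −5.04 ± 0.30 (SD, n = 4; exact p = 0.0286, adjusted p = 0.0343). With 5 counts added in place of 0.5, the difference was −1.997 rather than −2.51, and the groups still did not overlap, which alone fixes this p.

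Isl1, a LIM-homeodomain factor of all islet cell types that works with Ldb1, lay below its Het range in all 4 KO libraries, by a margin of 1.17-fold. It stood at 241, 306, 387 and 378 CPM in KO replicates 8, 9, 17 and 24 and at 536, 453, 475 and 487 CPM in Het replicates 6, 7, 13 and 19. The log2 fold change was −0.57 (SE 0.16, 95% interval −0.93 to −0.21), which did not pass over all genes (edgeR adjusted p = 0.167). It did pass by DESeq2 (adjusted p = 0.0365) and with the mesenchyme covariate (0.0401), and in the other 17 alternatives it did not. Without KO replicate 8 it was −0.46 (adjusted p = 0.130), with the Y-linked covariate −0.46 (0.525) and with scaling by the pan-endocrine genes −0.17 (0.560).

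Pax6, a paired-domain and homeodomain factor of all islet endocrine cells, was the steadiest gene of the set in Het, at 365 to 383 CPM. In KO it ranged from 158 CPM in replicate 8 to 404 CPM in replicate 17, above every Het library, so the groups overlapped (log2 fold change −0.29, 95% interval −0.82 to 0.24, edgeR adjusted p = 0.666). Isl1 over Pax6 averaged 0.16 ± 0.30 on the log2 scale in KO libraries and 0.38 ± 0.13 in Het libraries (SD, n = 4; exact p = 0.229). Without KO replicate 8 the difference was −0.37 (exact p = 0.0286, the smallest that 35 assignments give). Nkx2-2, a homeodomain factor needed for beta-cell identity, stood at 190, 263, 359 and 340 CPM in KO replicates 8, 9, 17 and 24 and at 346 to 448 CPM in Het (log2 fold change −0.38, 95% interval −0.83 to 0.06, adjusted p = 0.473).

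Pdx1, the homeodomain factor that binds the A-boxes of the insulin promoter and marks beta cells and pancreatic precursors, was at nearly the same mean in both genotypes. It stood at 73.7, 116, 154 and 143 CPM in KO replicates 8, 9, 17 and 24 and at 127, 127, 95.7 and 139 CPM in Het replicates 6, 7, 13 and 19. The log2 fold change was −0.01 with a 95% interval from −0.50 to 0.49, so these libraries leave room for a 0.707-fold to 1.40-fold ratio of KO to Het (edgeR adjusted p = 0.993). The sign of so small a value turned with the scaling, to 0.052 by total counts and 0.37 with the pan-endocrine genes.

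Nkx6-1, a homeodomain factor confined to beta cells among islet cells, stood at 53.6 to 138 CPM in KO and 61.7 to 136 CPM in Het (log2 fold change 0.24, 95% interval −0.47 to 0.95, adjusted p = 0.809). Glis3, a zinc-finger factor that acts on the insulin promoter and on Neurog3, stood at 70.1 to 172 CPM in KO and 94.5 to 165 CPM in Het (log2 fold change 0.14, 95% interval −0.48 to 0.76, adjusted p = 0.885). For both genes the groups overlapped and the intervals include no change as well as changes in either direction.

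**Figure D3:**
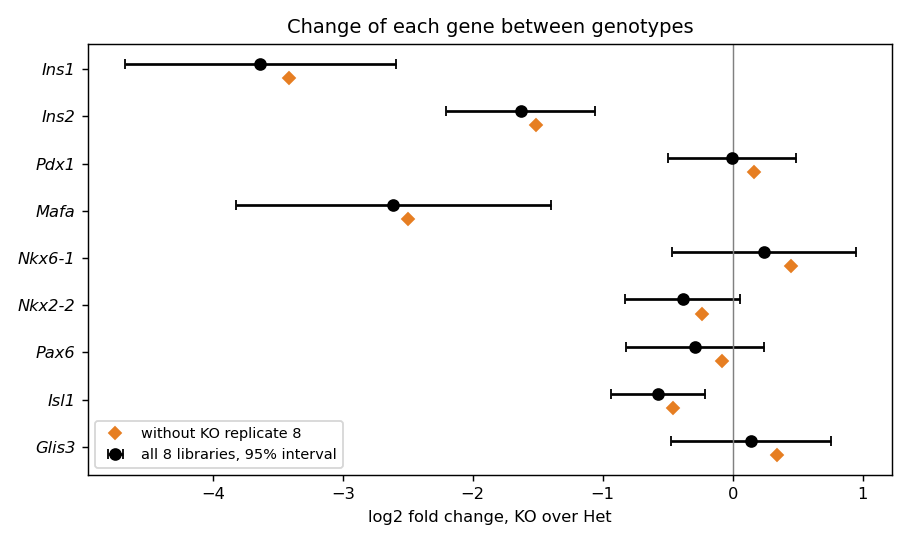
Log2 fold change of KO over Het for the 9 genes; black points with bars give the estimate and its 95% interval over all 8 libraries, and diamonds give the estimate without KO replicate 8. Ins1, Mafa and Ins2 lie at −3.64, −2.61 and −1.63, and the other 6 lie between −0.57 and 0.24.

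All 7 activators and Ins1 were at their lowest in KO replicate 8. The same held for 20.9% of all genes tested. Relative to the median of the other 3 KO libraries it held 0.407-fold of their Nkx6-1, 0.444-fold of their Pax6 and 0.638-fold of their Isl1, and 0.349-fold of their Ins1. The mesenchyme markers and the pan-endocrine genes moved with this library, and their part in these values was not tested. Without it the log2 fold changes were −3.42 for Ins1, −1.51 for Ins2, −2.50 for Mafa and 0.16 for Pdx1, and the members' median went from −0.38 to −0.24, where the median of all genes was 0.03 and −0.00 (−0.00478).

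Expressed per 100 CPM of the 14 pan-endocrine genes, KO replicate 8 was the highest KO library for Ins2, Nkx2-2 and Isl1 and the lowest for Nkx6-1, Pax6 and Glis3. Pdx1 was at 1.48 in that library, within 1.43 to 1.63 over the 4 KO libraries, against 0.972 to 1.30 in Het. On this scale every KO library thus lay above every Het library for Pdx1. The share of all genes whose groups separate on this scale was not computed. Nkx6-1 was at 1.08 to 1.38 in KO and 0.633 to 1.18 in Het, and Glis3 at 1.41 to 1.71 and 0.970 to 1.44. Pax6 was at 3.177 to 4.28 in KO and 3.182 to 3.80 in Het. On the same scale Isl1 was at 3.76 to 4.84 in KO and 4.25 to 5.50 in Het, and Nkx2-2 at 3.38 to 3.81 and 3.02 to 4.598. Ins2 was at 44.2 to 64.3 in KO and 106 to 146 in Het, and Ins1 at 9.63 to 15.8 and 85.7 to 210.4. The insulin genes and Mafa (0.00456 to 0.0101 against 0.0269 to 0.0492) remained lower in every KO library. The scaling genes were themselves lower in KO in 11 of 14 cases, with Scgn, which encodes the calcium sensor secretagogin, called (adjusted p = 0.0469), and this scaling raised the median log2 fold change of all genes by 0.47. Relative to that median the members stood at −3.81 (Ins1), −1.75 (Ins2), −2.71 (Mafa), −0.68 (Isl1), −0.52 (Nkx2-2), −0.45 (Pax6), −0.14 (Pdx1), −0.01 (Glis3) and 0.09 (Nkx6-1).

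Levels of different genes were compared per kilobase of GENCODE M21 exon model. In Het, Ins1 (12530 CPM per kb) and Ins2 (10384 CPM per kb) led, with overlapping ranges over the libraries, and in KO Ins2 (3356) lay above Ins1 (1007) in every library. The Ins1 model is 1.062 kb long against a coding sequence of 327 bases, so its level per kilobase depends on how much of that model is transcribed. Among the activators in Het, Isl1 (194 CPM per kb) lay above Nkx2-2 (149) without overlap of their libraries. Pdx1 (56.6) and Pax6 (54.1) overlapped, and Mafa (1.36) was lowest. The ranges of Nkx6-1 (27.9) and Glis3 (15.1) overlapped, but within every Het and every KO library Nkx6-1 lay above Glis3. In KO the order was Isl1 (130), Nkx2-2 (114), Pdx1 (56.3), Pax6 (44.3), Nkx6-1 (32.9), Glis3 (16.6) and Mafa (0.221).

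Of 12 other islet factors that act at the insulin promoter or upstream of Mafa, none was called by edgeR (0 at an unadjusted p under 0.05; 0 by DESeq2 and by voom), with a median log2 fold change of −0.19 against 0.03 over all genes. The smallest p was that of Insm1, a zinc-finger factor of endocrine differentiation (−0.48, edgeR adjusted p = 0.525). KO replicate 8 was lowest for 11 of these 12, and in the fit that left it out their median was 0.03. Of 18 partners and coregulators, edgeR called 1, where 0.68% of all genes were called lower and 0.34% higher. It was Neurod1 itself (log2 fold change −3.40, edgeR adjusted p = 0.0165), the gene removed by design, so this call is no result about the list. The list's median was 0.17. The E-box partner genes Tcf3, Tcf4 and Tcf12 had log2 fold changes of 0.20, 0.27 and −0.01, and Ldb1, the partner of Isl1, 0.18, all with adjusted p of 0.702 or more.

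Of 13 beta-cell target genes of these activators, 1 fell and none rose by edgeR, where 0.68% of all genes were called lower and 0.34% higher. G6pc2, a glucose-6-phosphatase catalytic subunit, stood at 484 ± 74.5 CPM in Het and 32.5 ± 7.88 CPM in KO (SD, n = 4; log2 fold change −3.89, SE 0.22, edgeR adjusted p = 5.71e-05). The other 12 did not pass, with the prolactin receptor gene Prlr at −2.06 (adjusted p = 0.0720, or 0.0337 without KO replicate 8), the glucose transporter gene Slc2a2 at 0.10 and the GLP-1 receptor gene Glp1r at 0.89 (adjusted p = 0.198). DESeq2 called 3 of the 13 lower (G6pc2, Iapp and Prlr) and 1 higher (Glp1r), where it called 2.08% and 1.61% of all genes. By voom with quality weights, which called 2.15% of all genes lower and 1.39% higher, G6pc2 and Prlr were called lower and Glp1r higher. The list's median was −0.17. Of 11 genes of insulin mRNA binding and proinsulin processing, 1 fell by edgeR, against 0.68% of all genes. It was Cpe, which encodes carboxypeptidase E, the enzyme that trims the ends of the cleaved hormone (log2 fold change −1.60, SE 0.21, adjusted p = 0.00795). The convertase genes Pcsk1 (0.05) and Pcsk2 (−0.71, adjusted p = 0.172), the zinc transporter gene Slc30a8 (−0.42) and Ptbp1 (0.07), whose product binds insulin mRNA, did not pass with edgeR, and DESeq2, with 2.08% of all genes called lower, called Cpe and Pcsk2, as did voom. The list's median was −0.22.

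**Figure D4:**
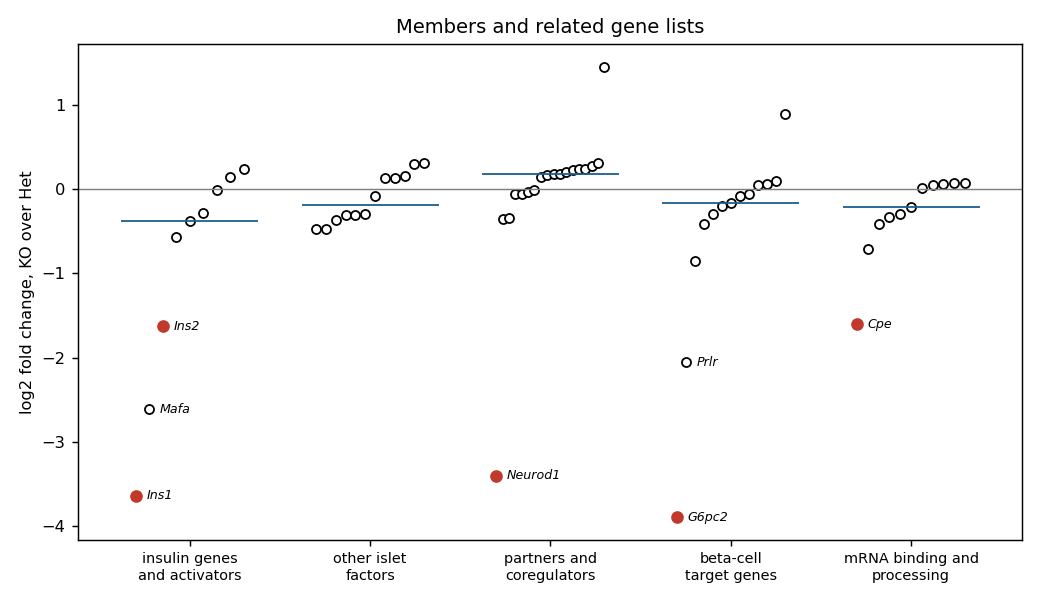
Log2 fold change of KO over Het for the 9 members and 4 lists of related genes, 1 point a gene; filled points passed the test over all genes (adjusted p under 0.05), open points did not, and lines are list medians. The filled points are Ins1, Ins2, Neurod1 (the gene removed by design), G6pc2 and Cpe, all lower in KO.

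The genes whose log2 CPM followed these members most closely over the 8 libraries were named by Pearson's r among the 10411 genes averaging 8 CPM or more. For Ins1 they were Crhr2, a corticotropin-releasing hormone receptor (r = 0.99), Banp (0.98) and Ins2 (0.98). For Ins2 they were Gnas, which encodes the stimulatory G-protein alpha subunit (r = 0.99), Ins1 (0.98) and the G-protein gamma subunit gene Gng4 (0.98). For Mafa they were Aldh5a1, a succinate semialdehyde dehydrogenase (r = 0.99), Tmem229b (0.98) and the adaptor gene Dapp1 (0.98). These libraries share 2 genotypes and KO replicate 8, so the values describe likeness in 8 points. Of the genes other than members, Crhr2 (log2 fold change −2.37, edgeR adjusted p = 0.0195), Gng4 (−1.001, 0.0266), Aldh5a1 (−0.97, 0.0165), Tmem229b (−0.94, 0.0165) and Dapp1 (−1.13, 0.00689) were called lower, and Banp (0.113) and Gnas (0.170) did not pass. Of all genes tested, 0.68% were called lower. These genes were picked for likeness to members that differ between the genotypes in the same libraries, so their calls follow from the choice and are no support.

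The authors' deposited table gave log2 fold changes of −3.64 for Ins1 (adjusted p = 0.00273), −1.63 for Ins2 (2.46e-08), −2.62 for Mafa (0.354) and −0.57 for Isl1 (0.169). In the authors' deposited table Ins2 thus had the smaller p of the 2 insulin genes, and the other 5 members had adjusted p of 0.787 or more.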

How the data were processed

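RNA of sorted embryonic day 17 cells, 2.315 ng a sample, was amplified with the NuGEN Ovation V2 kit and sequenced as single-end reads, per the labels' protocols; they mention neither strand marking nor molecular identifiers. The authors deposited raw counts per gene symbol for each library. The submitters' processing notes list the build mm9 and, with no order, DESeq, Cufflinks 2.0.2, TopHat2 2.1.0 and bcl2fastq 1.8.4; the counting tool is named nowhere in the sources used here, nor is its annotation. A further deposited table by the authors holds group signal (means of normalized counts), the fold ratio of KO to Het, its log2 and p-values, per the file headers.

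Counts were filtered with edgeR 4.0.16 filterByExpr (minimum count 10), scaled by TMM and tested by the quasi-likelihood F test, two-sided, with p-values adjusted over all 14116 genes tested and called under 0.05. Log2 CPM used a prior count of 2. No library was left out. Of the 6 ratios tested, 1 is not reported here. On simulated data with 200 changed genes among 14116, 64% of 100 changes of 2 on the log2 scale and 88% of 100 changes of 3 were recovered, with 9 false calls. Alternatives were other scalings, DESeq2 1.42.0, limma 3.58.1 voom with quality weights, other filters, marker covariates and each library left out. Genes named were the members, Neurod1, up to 3 called genes of each related list or the 1 with the smallest p, the second gene of each ratio, and the 3 genes most like Ins1, Ins2 and Mafa; others are examples chosen after their values were seen. The members, lists and tests were chosen with earlier results of these data known.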

Additional observations from a re-analysis of the deposited data

Results flagged for a closer look

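In 30 groups of 4 libraries (9 genes and 6 ratios, in each genotype), 5 held a library whose gap to its nearest neighbour as a share of the group's range was past Dixon's 95% critical value, where chance flags about 1 in 20 groups. Ins1 in Het replicate 19, at 24136 CPM, lay far above the other Het libraries. Nkx2-2 in Het replicate 6, at 448 CPM, was also far above the rest of its group. The log2 ratio of Ins2 to Iapp was high in KO replicate 9, at 0.64, and low in Het replicate 13, at 0.91. The log2 ratio of Mafa to Pdx1 was low in KO replicate 17, at −8.29, where Mafa had 6 counts.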

How the results depend on the processing

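No paired analysis was possible because the labels name no pairing of KO with Het libraries. Main counts were 96 genes lower and 48 higher, with 2 members lower and 0 higher. They were 11 lower and 16 higher with scaling by pan-endocrine genes (1 member lower), 293 and 227 by DESeq2 (4 members), 304 and 196 under voom weighting (limma), 350 and 219 with the mesenchyme covariate (4 members), 55 and 22 with the acinar covariate, and 22 and 6 with the Y-linked covariate (1 member). With each library left out in turn, 26 to 188 genes were lower, 3 to 97 higher, and 1 to 2 members lower; fewer libraries entered these fits, and without KO replicate 8, the fit with 188 and 97, the calls rose. No alternative called a member higher. The counts of 4 members include Mafa, which entered those fits only through its Het libraries.

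The Ins2 log2 fold change lost its call at −1.25 with pan-endocrine scaling and at −1.56 with the Y-linked covariate, and ran from −1.85 to −1.50 with a library left out. Mafa gained a call at −2.63 by DESeq2, −2.62 with the 2 CPM filter and −2.60 with the mesenchyme covariate. It entered each of these fits only through its Het libraries, so these Mafa calls are no support. Isl1 gained a call at −0.57 by DESeq2 and −0.51 with the mesenchyme covariate. Pdx1 turned positive at 0.052 by total counts, 0.37 with pan-endocrine scaling, 0.25 by limma-voom, 0.084 with the mesenchyme covariate, 9.49e-05 with the acinar covariate and 0.078 with the Y-linked covariate, and Pax6 at 0.057 with pan-endocrine scaling. With a library left out, Pdx1 ran from −0.16 to 0.16, Glis3 from −0.027 to 0.34, and the Isl1 to Pax6 difference from −0.37, past the threshold without KO replicate 8, to −0.15. The causes were not tested. Depth limits Mafa most, at 6 to 9 counts in KO.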
